A study of Mus musculus with 8 samples.

Results

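Apolipoproteins, the protein components of the particles that carry lipid in blood and between cells, were examined in mouse hearts after a 2-day fast. The genes followed were Apoc3, Apoc1, Apoc2, Apoe, Apod, Apob, Apoa1 and Apoa2. They were chosen as the apolipoproteins with array signals of interest in this same comparison of fasted with satiated hearts, so their values are given as a description, without a test. Of these 8 genes, 7 were matched through the accessions of their probes, with 12 probes among 41174, and the array named 18217 genes in all. Apoc2 had no probe matched by accession and was not analysed here. Signals passed the filter for brightness, at least 4 of 8 arrays well above background, for 5 of the 7: Apoc3, Apoc1, Apoe, Apod and Apoa2. Apoa1 and Apob did not pass it.

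Both groups were hearts of male C57BL/6J mice, a standard inbred strain, 9 weeks old, kept on the same pellet diet. The 4 satiated mice were untreated, and the 4 fasted mice had water but no food for 2 days. Total heart RNA from each sample was labelled with Cy3 and hybridised to its own array. The labels number the samples without stating litters or cages, so p-values measure only the spread between these samples.

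Apolipoproteins sort by the particle they ride on. Apob is the structural protein of the triglyceride-rich and low-density particles. Apoa1 and Apoa2 are the main proteins of high-density particles. The small C apolipoproteins move between particles, where Apoc2 activates lipoprotein lipase, the enzyme that frees fatty acids at the capillary wall of heart and muscle, and Apoc3 restrains the clearance of triglyceride. Apoc1 restrains lipid transfer and remnant uptake. Apoe is the ligand by which remnants are taken up by receptors, and is made by macrophages as well as liver. Apod, a lipocalin, differs from the rest in structure, binds small hydrophobic molecules such as arachidonic acid, and is made in many tissues outside the liver. Apoe, Apoc1, Apoc4 and Apoc2 lie next to each other in the mouse genome, and so do Apoa1, Apoc3, Apoa4 and Apoa5, as placed by the RefSeq annotation of assembly GRCm38.p6.

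Upstream sequence was available in RefSeq's table of promoters (GRCm38.p6) for 6 of the 8 genes, Apoc2, Apoe, Apod, Apob, Apoa1 and Apoa2. The 250 bases before the annotated start of Apod, the gene with the largest difference among these 6, and of Apob, which was scarcely detected, are printed 5′ to 3′ to set a gene that differed widely beside one that did not pass the brightness filter. Capitals mark the single match found, a TATA box (TATAAA) 60 bases before the start of Apob.
Apod, chr16:31314809-31315058, minus strand: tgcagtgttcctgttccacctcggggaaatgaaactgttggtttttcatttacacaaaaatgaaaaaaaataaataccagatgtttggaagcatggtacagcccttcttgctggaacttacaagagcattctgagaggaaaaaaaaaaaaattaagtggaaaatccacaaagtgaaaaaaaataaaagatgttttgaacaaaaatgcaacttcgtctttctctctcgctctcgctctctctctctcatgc
Apob, chr12:7977427-7977676, plus strand: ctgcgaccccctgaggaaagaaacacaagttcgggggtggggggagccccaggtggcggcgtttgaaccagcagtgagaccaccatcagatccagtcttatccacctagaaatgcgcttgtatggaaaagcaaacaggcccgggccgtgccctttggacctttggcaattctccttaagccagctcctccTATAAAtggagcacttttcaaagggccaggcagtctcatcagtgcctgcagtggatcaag
The Apod sequence was 36.4% G and C and the Apob sequence 55.2%. On either strand, 11 motifs were searched: the FoxO element GTAAACA, the nuclear receptor element AGGTCA, its direct repeats with 1 and with 4 bases between, the glucocorticoid receptor element AGAACA, the E-box CACGTG, the TATA box given above, the CCAAT box, the GC box GGGCGG, the AP-1 element TGANTCA and the STAT element TTCNNNGAA. A direct repeat contains the single element. None of the 11 was found in the Apod sequence. Among 32851 promoters of the same length, 12.4% held TATAAA, 3.17% the FoxO element, 14% AGGTCA, 0.0335% and 0.0152% the repeats with 1 and 4 bases between, 16.1% AGAACA, 6.02% the E-box, 33.8% CCAAT, 32.7% the GC box, 6.75% the AP-1 element and 7.02% the STAT element. A match describes letters in this window only.

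Levels are given as relative signal, the processed intensity of a probe divided by the 75th percentile of all probes on its array, with values in the order of replicates 1 to 4. The arrays lay on 2 slides, with replicates 1 and 2 of both groups on slide 1 and replicates 3 and 4 on slide 2. The slides were read out with different versions of the extraction software. Slide 1 had 66.7% to 68.9% of its probes well above background, and slide 2 had 54.4% to 55.6%. The lowest relative signal well above background was 0.0162 to 0.0199 on slide 1 and 0.045 to 0.0537 on slide 2, so values below these have no order. No spot was saturated. Signals of different probes are not compared with each other, because each probe has its own response. All 10 cardiomyocyte marker genes were above background, with a summed relative signal of 2860 to 3720 in satiated and 2530 to 3570 in fasted hearts.

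**Figure D1:**
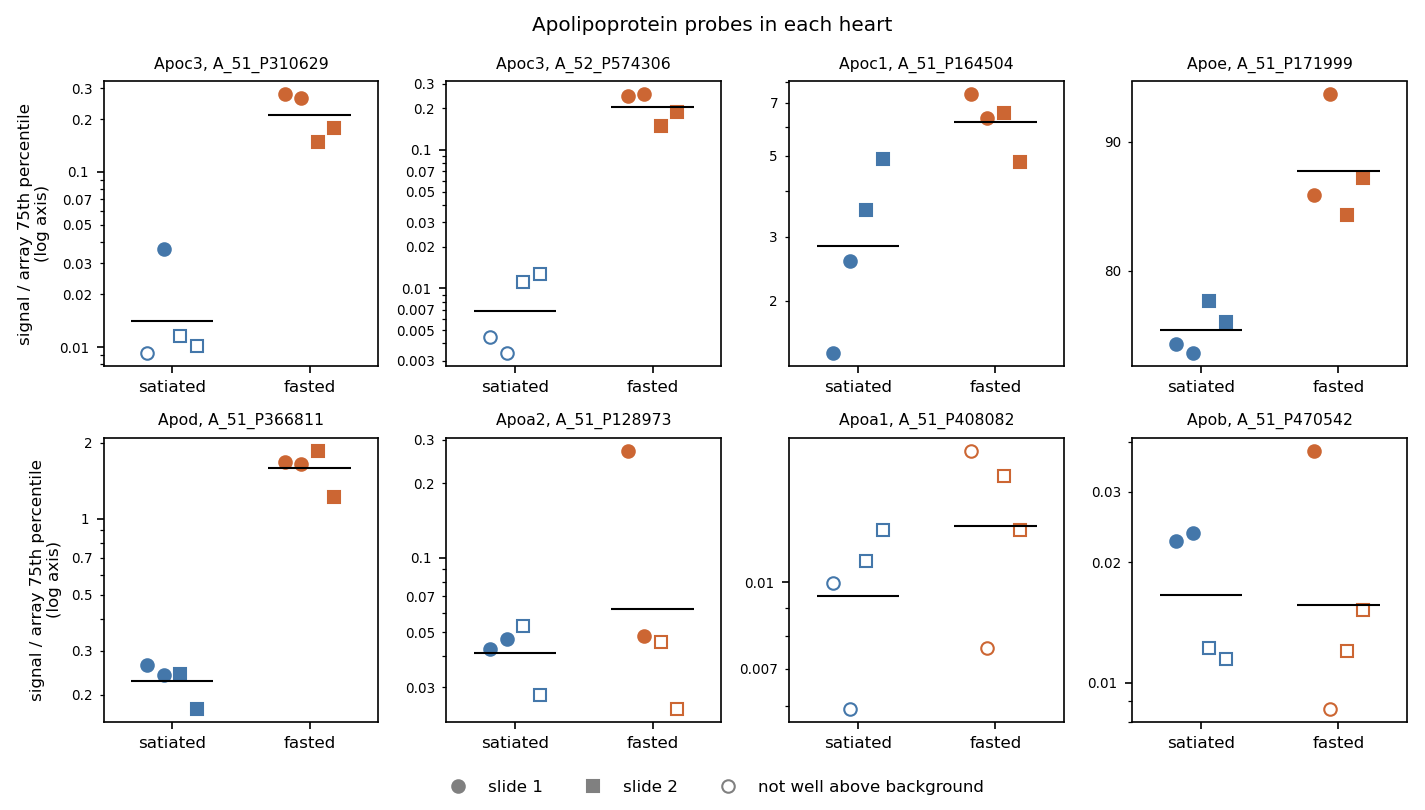
Relative signal of 8 apolipoprotein probes in each heart (log axis), satiated in blue and fasted in orange, circles for slide 1 and squares for slide 2. Open symbols were not well above background and bars are means of log2 values (4 hearts per group). Both Apoc3 probes and the Apod and Apoe probes have all 4 fasted hearts above all 4 satiated hearts.

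Apoc3 went from near background to a clear signal. The first probe, A_51_P310629, read 0.00928, 0.0363, 0.0116 and 0.0102 in the satiated hearts and 0.277, 0.265, 0.149 and 0.179 in the fasted hearts. Only replicate 2 of the satiated hearts was well above background, against all 4 fasted hearts, and the groups did not overlap. The mean log2 difference was 3.9 ± 0.51 (SE, 4 hearts per group), 3.88 on slide 1 and 3.91 on slide 2. That corresponds to 14.9-fold, with satiated readings mostly not well above background. With normexp background correction and an offset of 50 added to every signal, the difference was 1.54. The offset raises the dimmest signals most in proportion and so shrinks such differences. It applies to every normexp value below.

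A second Apoc3 probe, A_52_P574306, gave the same picture. Its relative signals were 0.00445, 0.00343, 0.0112 and 0.0127 in satiated and 0.244, 0.251, 0.149 and 0.188 in fasted hearts. No satiated heart was well above background, so Apoc3 was at least 6.92-fold higher in the fasted hearts by this probe. This bound sets the fasted mean against the lowest signal well above background on each satiated array. The probe passed the brightness filter through the fasted hearts alone. In the fasted hearts both probes read higher on the arrays of slide 1 than on those of slide 2. In RNA of bulk tissue, more cells of a type and more transcript per cell cannot be told apart, here or for any gene below.

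The neighbours of Apoc3 did not share its signal. Apoa1, read by 10 spots of a single probe, was well above background on 0 of 8 arrays. Its relative signals were 0.00995, 0.00593, 0.0109 and 0.0124 in satiated and 0.0172, 0.00761, 0.0155 and 0.0124 in fasted hearts. These readings overlapped and lay below the lowest signal called well above background. On fasted replicate 1, 1 of the 10 spots was well above background. Apoa4 was well above background on 3 satiated arrays and no fasted array, and Apoa5 on 2 satiated arrays and 1 fasted array. Neither passed the filter. Relative signals of Apoa4 were 0.0304, 0.0226, 0.0549 and 0.0112 in satiated and 0.0179, 0.0201, 0.017 and 0.00958 in fasted hearts.

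Apod was the other gene with a large difference. It read 0.264, 0.241, 0.242 and 0.176 in the satiated hearts and 1.67, 1.65, 1.86 and 1.22 in the fasted hearts. All 8 hearts were well above background, and the lowest fasted heart stood far above the highest satiated heart. The log2 difference was 2.79 ± 0.18 (SE, 4 hearts per group), or 6.93-fold, with 2.72 on slide 1 and 2.86 on slide 2. The spread between hearts of a group, 0.26 on the log2 scale, was near the median of all features, 0.29.

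Markers of cells that are known to make Apod were read beside it. Of 10 fibroblast markers, all were tested, 1 rose and 6 fell: Dcn, a small proteoglycan, rose (log2 difference 0.56 ± 0.12, limma adjusted p = 0.0155), while Col3a1 (-2.56 ± 0.40, adjusted p = 0.00412) and Lum (-1.48 ± 0.17, adjusted p = 0.00137), both of the collagen matrix, were among those that fell. The call of Dcn was lost without satiated replicate 2 (adjusted p = 0.0505) and with all probes kept (adjusted p = 0.0584). The summed relative signal of the fibroblast list was 258 to 292 in satiated and 247 to 298 in fasted hearts. Most of it came from Dcn, which alone read 141 to 158 and 201 to 260, so the sum does not show the falls. Of 7 tested Schwann cell markers, S100b (-0.96 ± 0.16, limma adjusted p = 0.00614) and Gfra3 (-1.01 ± 0.14, adjusted p = 0.00289) fell and none rose. The summed signal was 19 to 23.8 in satiated and 14.8 to 17.2 in fasted hearts, most of it from Pmp22 (14.8 to 20.1 and 11.7 to 14.2). The part of either cell type in the Apod difference was not tested.

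Apoe had a bright, closely replicated signal. Its single probe was printed in 10 spots, with a coefficient of variation between spots of 0.94% to 4.21% on the 8 arrays. Relative signals were 74.8, 74.2, 77.8 and 76.3 in satiated and 85.7, 94, 84.2 and 87.1 in fasted hearts. The groups did not overlap, although the difference was small: 0.21 ± 0.04 on the log2 scale (SE, 4 hearts per group), or 1.16-fold, with 0.27 on slide 1 and 0.15 on slide 2. The spread between hearts within a group was 0.05, and only 0.421% of features had a smaller one. Apoe is an average of 10 spots, so this rank is not like for like with features read by fewer spots. With quantile normalization the difference was 0.11.

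Macrophages, a known source of Apoe and Apoc1, were followed through 11 matched markers of 12 listed, all above background. Their summed relative signal was 29.9 to 32.7 in satiated and 27.4 to 37.9 in fasted hearts, and the median difference of the 11 tested was 0.01. Mertk, a receptor for dying cells, rose (log2 difference 0.95 ± 0.20, limma adjusted p = 0.0125). Cd14 (0.80 ± 0.24, adjusted p = 0.0484) rose and Fcgr1 (-0.99 ± 0.30, adjusted p = 0.049) fell, but the call of Cd14 held only without fasted replicate 3 and that of Fcgr1 only without fasted replicate 2 or 3 among the 8 fits that left out an array (adjusted p = 0.0606 to 0.12 and 0.063 to 0.11 in the others). Fcgr1 also lost its call with the replicate block (adjusted p = 0.0614), and Cd14 with quantile normalization (adjusted p = 0.0509). Scaling on probes well above background on all arrays ended both calls (adjusted p = 0.0661 for Cd14 and 0.0552 for Fcgr1), and so did keeping all probes (adjusted p = 0.115 and 0.112). The part of macrophages in the Apoe and Apoc1 values was not tested.

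Apoc1 differed mainly on slide 1. Its relative signals were 1.44, 2.57, 3.56 and 4.91 in the satiated hearts and 7.38, 6.36, 6.57 and 4.8 in the fasted hearts. Fasted replicate 4 lay just below satiated replicate 4, so the groups overlapped. The log2 difference was 1.13 ± 0.40 (SE, 4 hearts per group), or 2.19-fold, with 1.83 on slide 1 and 0.43 on slide 2. The satiated hearts spread over 1.77 on the log2 scale and the fasted hearts over 0.62.

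Apoc4, the neighbour between Apoc1 and Apoc2, is no member of the chosen group and came from a wider list of apolipoproteins. It read 0.0268, 0.0219, 0.0249 and 0.0226 in satiated and 0.248, 0.465, 0.103 and 0.154 in fasted hearts. All 4 fasted and 2 satiated hearts were well above background, and the groups did not overlap. The probe passed the brightness filter only with the fasted hearts. Apoc4 rose by 3.11 ± 0.41 on the log2 scale (limma adjusted p = 0.00237), by 3.81 on slide 1 and 2.41 on slide 2. With normexp correction the rise was 1.49 (adjusted p = 0.00241).

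**Figure D2:**
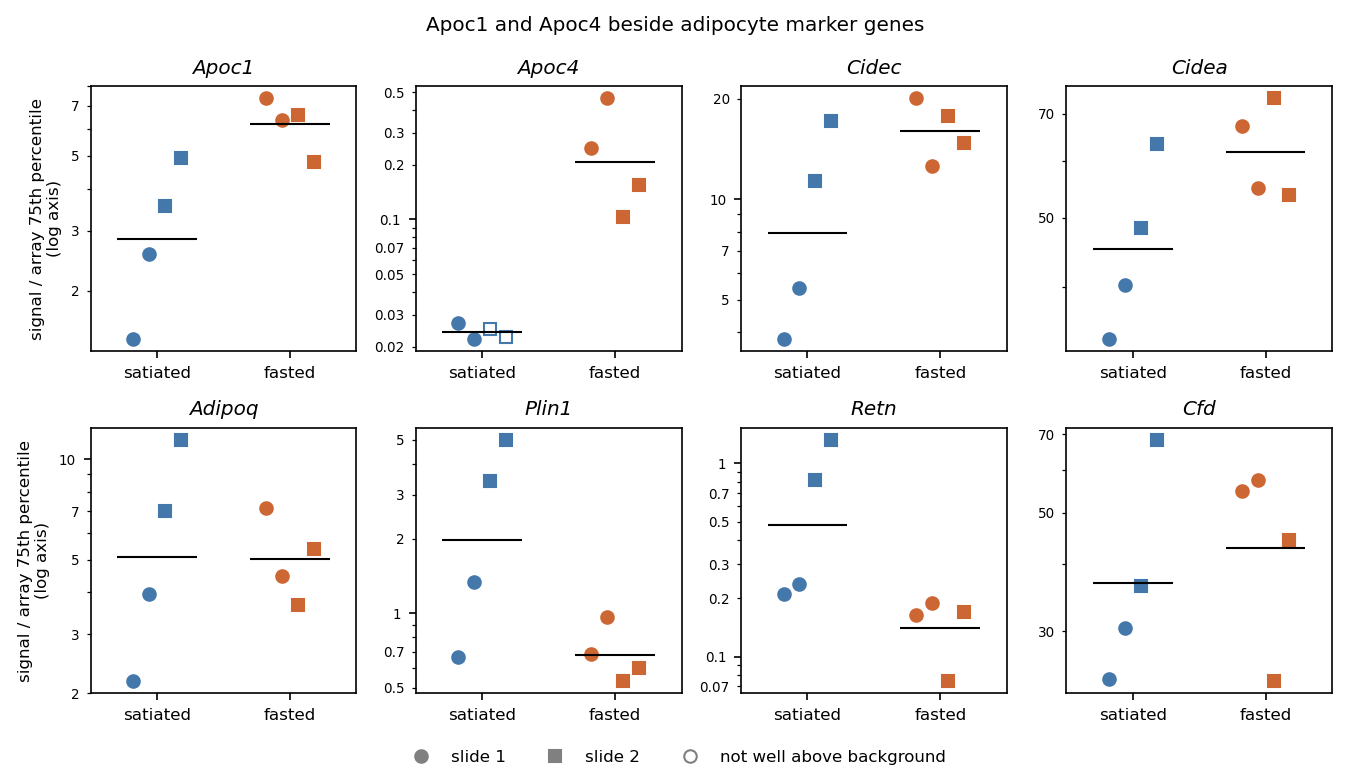
Relative signal of Apoc1 and Apoc4 beside 6 adipocyte marker genes in each heart (log axis; circles slide 1, squares slide 2, open symbols not well above background, bars means of log2 values, 4 hearts per group). In the satiated hearts Apoc1 and all 6 adipocyte markers are lowest in replicate 1 and highest in replicate 4.

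The adipocyte markers Cidec and Cidea followed Apoc1 from heart to heart. Over the 8 arrays the named genes most like Apoc1 were Acsm3 (Pearson r = 0.947), Cidec (r = 0.947) and Cidea (r = 0.94), the last 2 being lipid droplet proteins of fat cells. Relative signals of Cidec were 3.8, 5.42, 11.3 and 17.1 in satiated and 20.1, 12.6, 17.7 and 14.7 in fasted hearts. The other adipocyte markers plotted, Adipoq, Plin1, Retn and Cfd, rose in the same order over the satiated hearts, but their fasted levels differed. Retn, the hormone resistin, read 0.21, 0.237, 0.817 and 1.32 in satiated and 0.165, 0.19, 0.0744 and 0.171 in fasted hearts. Of the 8 adipocyte markers tested by limma, 0 were called at an adjusted p under 0.05, and 3 had an unadjusted p under 0.05. The list's summed signal was 74.5 to 200 in satiated and 129 to 164 in fasted hearts, and all 9 markers matched were above background on some array. The part of fat tissue in the Apoc1 value was not tested.

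Apoa2 was high in a single heart. It read 0.0427, 0.0468, 0.0531 and 0.0278 in satiated and 0.271, 0.0482, 0.0457 and 0.0245 in fasted hearts. Only the arrays of slide 1 were well above background, 2 in each group, and only fasted replicate 1 stood out. The log2 difference was 0.58 ± 0.77 (SE, 4 hearts per group), 1.35 on slide 1 and -0.2 on slide 2, and it was -0.13 without fasted replicate 1.

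Apob, read by 5 probes, had no steady signal. In 2 of the 5 probes some arrays were well above background: A_51_P470542 in 2 satiated hearts and 1 fasted heart, and A_52_P441070 in 1 fasted heart. Relative signals of A_51_P470542 were 0.0226, 0.0237, 0.0122 and 0.0115 in satiated and 0.038, 0.00861, 0.012 and 0.0152 in fasted hearts. The groups overlapped for all 5 probes, whose log2 differences ran from -0.08 to 0.35. In both probes with a signal, the highest heart was again fasted replicate 1.

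Fasted replicate 1 also carried transcripts of hepatocytes, the liver cells that make most plasma apolipoproteins. Alb, serum albumin, read 1.45 in that heart and 0.0105, 0.034 and 0.0104 in fasted replicates 2 to 4. In the satiated hearts Alb read 0.157, 0.0276, 0.282 and 0.0164. Satiated replicate 3 was also well above background for Fgb (0.0714) and Ambp (0.102), which read 0.696 and 0.133 in fasted replicate 1. The fibrinogen chain Fgg read 0.896 in fasted replicate 1, at most 0.0253 in the other fasted hearts and at most 0.0481 in the satiated hearts. Hpx, the haem-binding hemopexin, read 1.22 there and 0.0265 to 0.0543 in the other 7 hearts. Of 12 matched hepatocyte markers 10 were above background on some array, and Ttr and Fga, which hepatocytes make in abundance, on none.

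**Figure D3:**
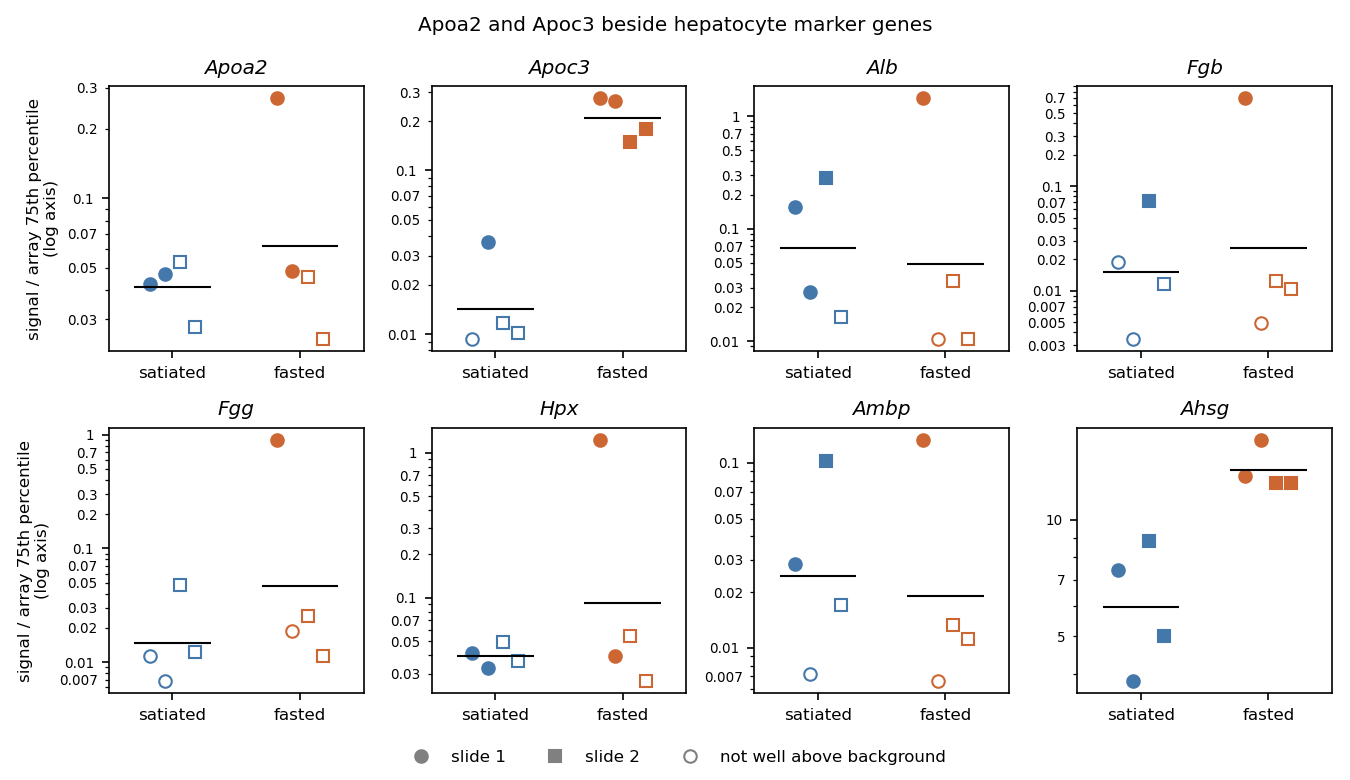
Relative signal of Apoa2 and Apoc3 beside 6 hepatocyte marker genes in each heart (log axis; circles slide 1, squares slide 2, open symbols not well above background, bars means of log2 values, 4 hearts per group). Fasted replicate 1 has the highest Apoa2, Alb, Fgb, Fgg, Hpx and Ambp, whereas Apoc3 is high in all 4 fasted hearts.

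The summed signal of the hepatocyte list was 5.43 to 12 in satiated and 16.2 to 22.9 in fasted hearts, most of it from Ahsg and Cyp2e1. These 2 did not follow Alb, Fgb and Fgg from heart to heart. In fasted replicate 2 Ahsg read 16.1 and Cyp2e1 5.96, while Alb, Fgb and Fgg were not well above background. Ahsg rose by 1.18 ± 0.26 on the log2 scale (limma adjusted p = 0.0163), the single call among 7 hepatocyte markers tested. For Apoa2 the part of liver RNA was not tested. For Apoc3, the fasted replicates 2 to 4, in which Alb was not well above background, read 0.265, 0.149 and 0.179, and the difference without fasted replicate 1 was 3.76. Markers of enterocytes, the other main source of Apob and Apoc3, summed to 0.167 to 0.386 in satiated and 0.15 to 0.645 in fasted hearts. The largest part of the highest sums was Fabp1, at 0.162 in satiated replicate 3 and 0.452 in fasted replicate 1. Of the 4 enterocyte markers tested by limma, 0 were called. Of 8 matched enterocyte markers, Cdh17 and Lct were above background on no array.

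**Figure D4:**
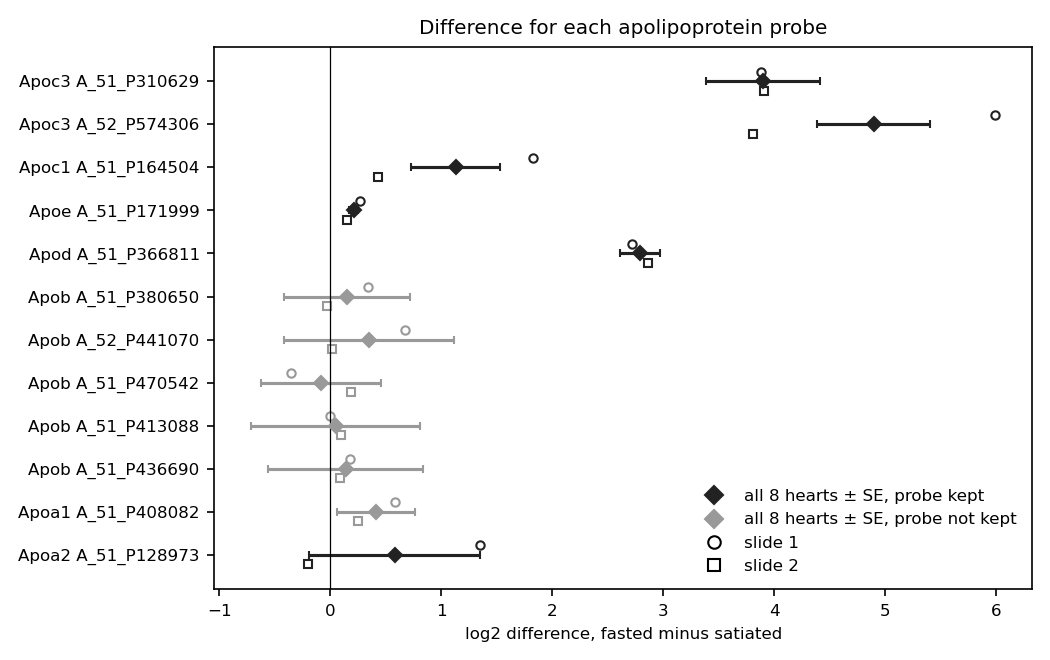
Log2 difference between fasted and satiated hearts for the 12 probes of the 7 matched apolipoprotein genes, with diamonds and bars for the mean ± SE over all 8 hearts and open circles and squares for slides 1 and 2. Apoc3 and Apod lie at 2.79 or above, and the differences of Apob and Apoa1, in grey, were measured mostly on signals not well above background.

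Among the 5 genes that passed the brightness filter, 3 had all fasted hearts above all satiated hearts (Apoc3, Apod and Apoe), 0 had all below, and 2 overlapped. Over all 20203 features tested, the groups did not overlap in 27.6%: 13.3% had all fasted hearts higher and 14.3% all lower. The genes were chosen on this comparison and a filter on brightness kept part of them, so this count carries no further weight.

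The genes most like the other members differed in number from member to member. For Apod, Slc25a28, a mitochondrial iron carrier (r = 0.997), Gpnmb, a glycoprotein of macrophage lysosomes (r = 0.995), and Pbld1 (r = 0.995) came first, and 906 of 13793 named genes had an r over 0.9. For Apoc3, the first were Rnft1 (r = 0.984), Derl3, which acts in the disposal of misfolded proteins (r = 0.983), and Ccdc96 (r = 0.983), among 407 over 0.9. For Apoe, they were the chemokine Cxcl13 (r = 0.983), Vsig4, a complement receptor of tissue macrophages (r = 0.979), and Vit (r = 0.975), among 145 over 0.9. Apoa2 was followed by Ppard (r = 0.98), Cyp3a11, a drug-metabolising enzyme of liver (r = 0.959), and Hpx (r = 0.959), all of which were highest in fasted replicate 1, and 11 genes were over 0.9. For Apoc1 that number was 19. These correlations are over 8 arrays that share the groups and slides, and describe them without a test.

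**Figure D5:**
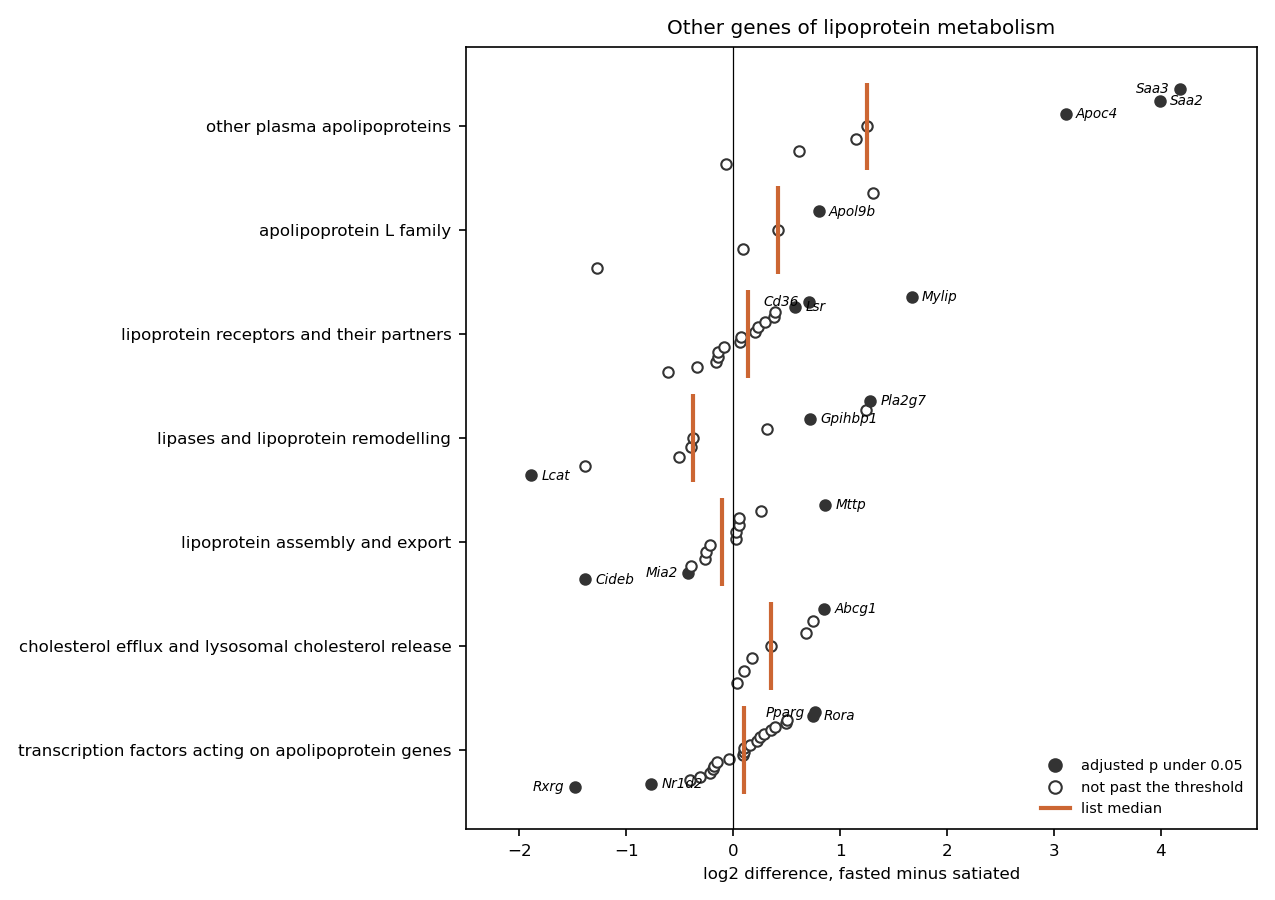
Log2 difference between fasted and satiated hearts for 78 tested genes in 7 lists of lipoprotein metabolism, with filled circles past an adjusted p of 0.05 in limma and orange bars for list medians. Apoc4, Saa2 and Saa3 lie at 3.11, 3.99 and 4.18, and at 1.49, 1.98 and 2.05 with normexp correction, which is not plotted.

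The other genes of lipoprotein metabolism were tested with limma across all 20203 features, of which 20.2% were called (9.82% higher, 10.3% lower in fasted hearts; median difference 0 on the log2 scale). Of 97 listed genes 78 were tested, and 13 rose, 5 fell and 60 did not pass, which is 23.1% called with a median of 0.10. That share lay near the background. With the replicate number as a block (replicate block) 6486 of all features were called in place of 4073, and the calls rose from 1 to 3 in the apolipoprotein L family, from 3 to 5 among receptors, from 1 to 2 in cholesterol efflux and from 4 to 8 among transcription factors. On slide 2 alone, where 1 feature was called in all, the 18 calls were lost, and on slide 1 alone 10 of the 18 were lost. Keeping all probes ended the calls of Saa2, Lsr, Cd36, Gpihbp1, Cideb, Mia2, Rora and Nr1d2 (adjusted p = 0.054 to 0.122).

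Among 12 other plasma apolipoproteins, 7 were tested, 3 rose and none fell, with a median of 1.25. All 3 passed the brightness filter only with their fasted arrays, so this count, the median and the adjusted p-values depend in part on that filter. With all probes kept, 2 of 12 were called. Besides Apoc4, the rises were in serum amyloid A genes, acute phase proteins of high-density particles: Saa3 by 4.18 ± 0.47 (limma adjusted p = 0.00122) and Saa2 by 3.99 ± 1.17 (adjusted p = 0.0449). Only 1 of 4 satiated hearts was well above background for Saa3 and 2 of 4 for Saa2, against all fasted hearts, so the sizes depend on how background was treated. With normexp correction Saa3 was 2.05 (adjusted p = 0.002) and Saa2 was 1.98 (adjusted p = 0.103). Saa2 read 2.96 in fasted replicate 1 and 0.0571, 0.378 and 0.0623 in fasted replicates 2 to 4. Its call was also lost when any satiated array was left out or fasted replicate 3 was (adjusted p = 0.0728 to 0.105). Saa1 and Saa2 are close copies, and their probes may share signal. Clu, or apolipoprotein J, had a value of 0.62 ± 0.20 (adjusted p = 0.0672) and Apom one of -0.07 ± 0.44 (adjusted p = 0.939). For Apom only the arrays of slide 1 were well above background, 2 in each group. Of 5 tested genes of the apolipoprotein L family, which act inside cells, Apol9b rose (0.80 ± 0.18, adjusted p = 0.0158), with a list median of 0.42, and a close copy, Apol9a, could share its signal.

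Of 16 tested receptors and partners 3 rose and none fell (18.8%), with a median of 0.14. Mylip, a ubiquitin ligase that limits lipoprotein uptake, rose most (1.67 ± 0.30, or 3.18-fold, limma adjusted p = 0.00697), from 4.27 to 6.85 in satiated to 9.43 to 23.5 in fasted hearts. Lsr, a receptor for triglyceride-rich remnants, rose too (0.58 ± 0.12, adjusted p = 0.0144). The fatty acid and lipoprotein receptor Cd36 rose by 0.71 ± 0.18 (adjusted p = 0.0289), a call lost without satiated replicate 3 or 4 or fasted replicate 1 or 2 (adjusted p = 0.0618 to 0.0801) and with quantile normalization (0.59, adjusted p = 0.0838).

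Of 9 tested lipases and remodelling proteins, 2 rose and 1 fell, with a median of -0.38. Pla2g7, the lipoprotein-associated phospholipase, rose (1.28 ± 0.12, or 2.42-fold, limma adjusted p = 0.000683), with 0.426 to 0.489 in satiated and 1.04 to 1.29 in fasted hearts. Lcat, which esterifies cholesterol on high-density particles and is activated by Apoa1, fell by 1.89 ± 0.20 (adjusted p = 0.00108), and only 1 of 4 fasted hearts was well above background. The 4 satiated hearts alone carried the Lcat probe past the brightness filter, so its adjusted p depends in part on that filter. With all probes kept the limma adjusted p was 0.00484. With normexp correction Lcat was -0.38 (adjusted p = 0.0691). Gpihbp1, which holds lipoprotein lipase on capillaries, rose by 0.72 ± 0.22 (adjusted p = 0.0498), a call kept only without satiated replicate 1 or fasted replicate 4 when an array was left out (adjusted p = 0.0804 to 0.128 in the other 6 fits). Gpihbp1 also lost it with quantile normalization (adjusted p = 0.0733) and with scaling on probes well above background on all arrays (adjusted p = 0.0568). The lipase itself, Lpl, had a value of 0.32 ± 0.18 (adjusted p = 0.241).

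Of 12 genes of particle assembly and export, 1 rose and 2 fell, with a median of -0.10. Mttp, which loads lipid onto the Apob protein, rose (0.86 ± 0.15, or 1.82-fold, limma adjusted p = 0.00652), from 0.046 to 0.0652 in satiated to 0.0895 to 0.11 in fasted hearts, while Apob remained mostly at background. The falls were in Cideb, a lipid droplet protein of particle maturation (-1.39 ± 0.37, adjusted p = 0.0333), and Mia2, which acts in export from the endoplasmic reticulum (-0.42 ± 0.12, adjusted p = 0.0369). Cideb was well above background in 3 satiated and 2 fasted hearts, and not in fasted replicates 3 and 4, so the size of its fall rests in part on background readings. Among the 8 fits that left out an array, Cideb was called only without fasted replicate 2 or 4 and Mia2 only without fasted replicate 1 (adjusted p = 0.058 to 0.0864 and 0.0555 to 0.0947 in the others). With normexp correction Cideb was -0.08 (adjusted p = 0.664) and Mia2 was -0.37 (adjusted p = 0.0951), and with the deposited values Mia2 had an adjusted p of 0.0671.

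Of 7 tested genes of cholesterol efflux, the exporter Abcg1 rose (0.85 ± 0.18, limma adjusted p = 0.0136), with a list median of 0.35, and Abca1, which loads cholesterol onto Apoa1 and Apoe, had a value of 0.75 ± 0.25 (adjusted p = 0.0682). Among 22 tested transcription factors known to act on apolipoprotein genes, 2 rose and 2 fell, with a median of 0.10. Pparg (0.77 ± 0.14, adjusted p = 0.00688) and Rora (0.75 ± 0.17, adjusted p = 0.0189) rose, and Rxrg (-1.48 ± 0.23, adjusted p = 0.00419) and Nr1d2, a repressor of the clock (-0.77 ± 0.19, adjusted p = 0.0247), fell. Rora lost its call without satiated replicate 2, 3 or 4 or fasted replicate 1 (adjusted p = 0.0511 to 0.0573). Nr1d2 lost it without satiated replicate 1 or 3 or fasted replicate 1, 2 or 4 (adjusted p = 0.0531 to 0.0659). Hnf4a, the hepatic activator of Apoc3 and Apob, had a value of 0.22 ± 0.30 (adjusted p = 0.663), and the receptor for oxysterols Nr1h3 one of 0.49 ± 0.17 (adjusted p = 0.0763). For Hnf4a only the arrays of slide 1 were well above background, 2 in each group.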

How the data were processed

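The authors deposited Agilent Feature Extraction tables of spot intensities on a linear scale, background-subtracted within each array and not normalized between arrays, per the file headers (version 10.5.1.1 for slide 1 and 10.7.3.1 for slide 2; the submitters' processing notes name 9.1). They also deposited a table of linear ratios for the whole series. No source used here gives how those ratios were made. For 99.5% of its probes the ratios differed from the intensities by 1 factor per array and a constant per probe (within 0.01, log2), so scale and direction are those of the intensities and the centring stays unknown. Column medians were 0.876, 0.901, 0.954 and 0.98 (satiated replicates 1 to 4) and 0.887, 0.86, 1.02 and 0.96 (fasted).

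Log2 intensities were centred on each array's 75th percentile. Control spots and outlier flags were left out, replicate spots averaged, and a probe kept where 4 or more of 8 arrays read it well above background (26480 of 41174). Accessions named 64.8% of probes through the RefSeq table of GRCm38.p6, used for names, promoters and neighbours; 1791 spots carried another accession on slide 2, and slide 1's was used. The brightest kept probe stood for a gene. Tests used limma 3.58.1 in R 4.3.3 without covariates, two-sided, adjusted by Benjamini-Hochberg over 20203 features. Figures were drawn with matplotlib 3.10.9. Errors of the chosen genes are those of a difference of 2 means, and those of listed genes are limma's. The fit was tested on simulated data. The number of arrays limits the precision.

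The members and lists were chosen with earlier results of these data known. Named were all members, up to 4 called genes per list by smallest p (or the smallest), and the 3 genes most correlated with each member; genes at other values, such as Lpl and Hnf4a, were added for their role after their values were seen. Same-numbered hearts shared a slide and deviated together (r = 0.331 to 0.493), no more than other hearts of that slide (0.291 to 0.522), so the numbers stand for the slide.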

Additional observations from a re-analysis of the deposited data

Results flagged for a closer look

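Satiated replicate 2 stood apart for Apoc3 by probe A_51_P310629: its relative signal was 0.0363, against 0.00928 to 0.0116 in the other 3 satiated hearts, where the probe was not well above background. By the second Apoc3 probe the same heart read 0.00343 and was not well above background. The rule for a flag set the gap between a heart and its nearest neighbour against the range of its group, on the log2 scale. Of 10 groups of 4 hearts examined, only this one held a heart that met the rule. Fasted replicate 1 for Apoa2 (0.271, next highest fasted heart 0.0482) had a wider gap but did not meet it. Chance gives about 1 in 20 for each group, so 1 flagged heart among 10 groups is not unusual. For Apoc3 by probe A_51_P310629, the other 3 satiated readings lay below the lowest signal well above background, where values have no order.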

How the results depend on the processing

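Alternatives were applied to the counts of calls by limma and to the differences of the chosen genes; for calls and values that moved, the cause was not tested unless fewer hearts or features were used. Over all features, 4073 were called, 7177 with slide as a block, 6486 with the replicate block, 1883 on slide 1 alone, 1 on slide 2 alone (5333 at an unadjusted p under 0.05), 2225 with all probes kept, and 2495 to 3690 when 1 array was left out. With slide as a block, calls were 3 in the apolipoprotein L family, 7 among receptors, 5 in assembly, 4 in efflux and 7 among transcription factors; with the replicate block they were 3, 5, 4, 2 and 8. On slide 1 alone they were 1 among receptors, 1 in assembly, 0 in efflux (2 at an unadjusted p under 0.05) and 2 among transcription factors. On slide 2 alone all 7 lists had 0 calls, with 2 to 5 genes each at an unadjusted p under 0.05. Keeping all probes gave 1 call among receptors, 1 in assembly and 2 among transcription factors. Requiring all 8 arrays well above background gave 1 among the other plasma apolipoproteins, where 2 genes were left to test, and 3 in efflux. In the apolipoprotein L family, normexp, quantile normalization and the deposited value table gave 2 calls each; normexp gave 1 in assembly and the deposited values 2 in efflux. Leaving out 1 array gave 2 to 3 calls among the other plasma apolipoproteins, 1 to 2 in the apolipoprotein L family, 2 to 3 among receptors, 2 to 4 among lipases, 1 to 2 in assembly, 1 to 2 in efflux and 2 to 4 among transcription factors. The log2 difference of Apoc3 (3.9) was 1.54 with normexp and 3.69 to 4.35 with 1 array left out; that of Apod (2.79) was 2.23 with normexp and 2.67 to 2.92. Apoc1 (1.13) was 1.83 and 0.43 on slides 1 and 2 alone, and 0.8 to 1.39 with 1 array left out. Apoe (0.21) was 0.27 and 0.15 on slides 1 and 2, 0.11 with quantile normalization and 0.18 to 0.23 with 1 array left out. Apoa2 (0.58) turned to -0.2 on slide 2 alone and to -0.13 without fasted replicate 1, and reached 1.02 without another array. Blocks left the differences of the chosen genes as they were, since each slide holds 2 hearts per group. The planned normexp correction of mean signals was not run; median signals were used instead, a choice made after seeing the data. In simulated data on 20172 features with 50 changed at each size, limma recovered 4%, 36%, 82% and 92% of changes of 0.5, 1, 2 and 3 on the log2 scale, and 5 of 112 calls were false. Far fewer features changed there than the 4073 called in the hearts, so these shares need not hold for the reported fit. Signal over background limits Apoa1, Apob, Apoa2 and the satiated level of Apoc3.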
